A study of Rattus norvegicus with 6 samples.

Results

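The transcripts described here are 10 genes of heme breakdown and iron handling, chosen by symbol from the 18237 gene rows of 6 RNA-seq libraries: Hmox1, Blvra, Blvrb, Fth1, Ftl1, Tfrc, Slc40a1, Slc11a2, Aco1 and Ireb2. All 10 had a row, and all 10 passed the filter on low counts that kept 11726 genes for testing. The libraries came from cultured rat cells labelled NRVM, which usually stands for ventricular myocytes of neonatal rats, although the growth protocol names embryonic myocardium, and kept in DMEM with 10% serum at 5% CO2. Cells of 3 libraries were given an siRNA against Mt2 (siMt2), which encodes a metallothionein, a small metal-binding protein. Cells of the other 3 were given a control siRNA (siNT). The protocol text shared by both groups also names 1 µM dexamethasone, 0.5 mM isobutylmethylxanthine and insulin, and the sources used here do not say whether these cells received them. The design sets cells with Mt2 targeted against control cells within a project on nitrative damage of the heart after ischemia. No label tells whether replicates were separate cultures. Each p-value therefore measures the spread among these 6 libraries alone, and that spread may be technical.

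Heme oxygenase opens the ring of heme and yields biliverdin, carbon monoxide and ferrous iron. Biliverdin reductase turns biliverdin into bilirubin, and the iron is either stored in ferritin, a shell of heavy and light chains, or leaves the cell through ferroportin. Iron enters cells bound to transferrin through the transferrin receptor, and the iron regulatory proteins set the translation of ferritin and ferroportin mRNA and the stability of transferrin receptor mRNA by binding iron-responsive elements. In heart muscle the pathway is known for handling the heme and iron set free by injury.

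Gene counts summed to 2859759 to 6817777 in the siMt2-labelled libraries and to 4216586 to 6567793 in the siNT libraries, so that 3 counts equalled 0.437 to 1.05 CPM. CPM is a count divided by its library's total and adjusted for library composition. Replicate 3 of siMt2 was the shallowest library and stood apart from its group on the second principal component, at -26.4 against 9.58 and 18.8 for its replicates 1 and 2. The targeted gene was not measurably lower. Mt2a stood at 70.4, 87.0 and 141 CPM in the siMt2-labelled libraries and at 90.4, 169 and 93.0 CPM in the siNT libraries, a log2 fold change of -0.28 (SE 0.42) for which the edgeR fit gave an adjusted p of 0.631 and an exact permutation test a p of 0.5. A knockdown of Mt2a was not measurable in these counts, and groups are named by their labels. Without siNT replicate 2 the log2 fold change was 0.05. Defining heart muscle markers were nearly absent: Myh6 had 9 counts over all 6 libraries, Actc1 had 4 and Tnni3 had 3. The 8 measured of 10 cardiomyocyte markers summed to 51.1 to 63.5 CPM in the siMt2-labelled libraries and to 29.2 to 32.0 CPM in the siNT libraries, mostly from Tnnt2. The 8 fibroblast markers summed to 9497 to 13474 CPM in the siMt2-labelled libraries and to 7420 to 7594 CPM in the siNT libraries. Most of both sums came from Col1a1. Of 7 tested, 5 rose and 0 fell, against 25.8% higher and 25.1% lower over all genes. Pdgfra had 2 counts over all 6 libraries, Dcn had 50 and Lum had 51. In bulk samples, fewer cells of a type and less RNA per cell cannot be told apart.

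Of the 10 genes, 4 rose and 2 fell in the siMt2-labelled libraries, and 4 passed the test in neither direction. Hmox1, Blvrb, Fth1 and Slc40a1 were higher, Ftl1 and Tfrc were lower, and Blvra, Slc11a2, Aco1 and Ireb2 were not distinguished from siNT. Across all genes tested, 50.9% passed the test, 25.8% as higher and 25.1% as lower, so a count of 6 called among 10 is near the background and the sizes of the single changes carry the description. The same holds for the spread of the libraries: the groups did not overlap for 6 of the 10 genes, against 57.6% of all genes tested. The median log2 fold change of the 10 was 0.10, against 4.34e-04 for all genes. Without replicate 3 of siMt2, the library that stood apart, 4 rose and 2 fell as well.

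**Figure D1:**
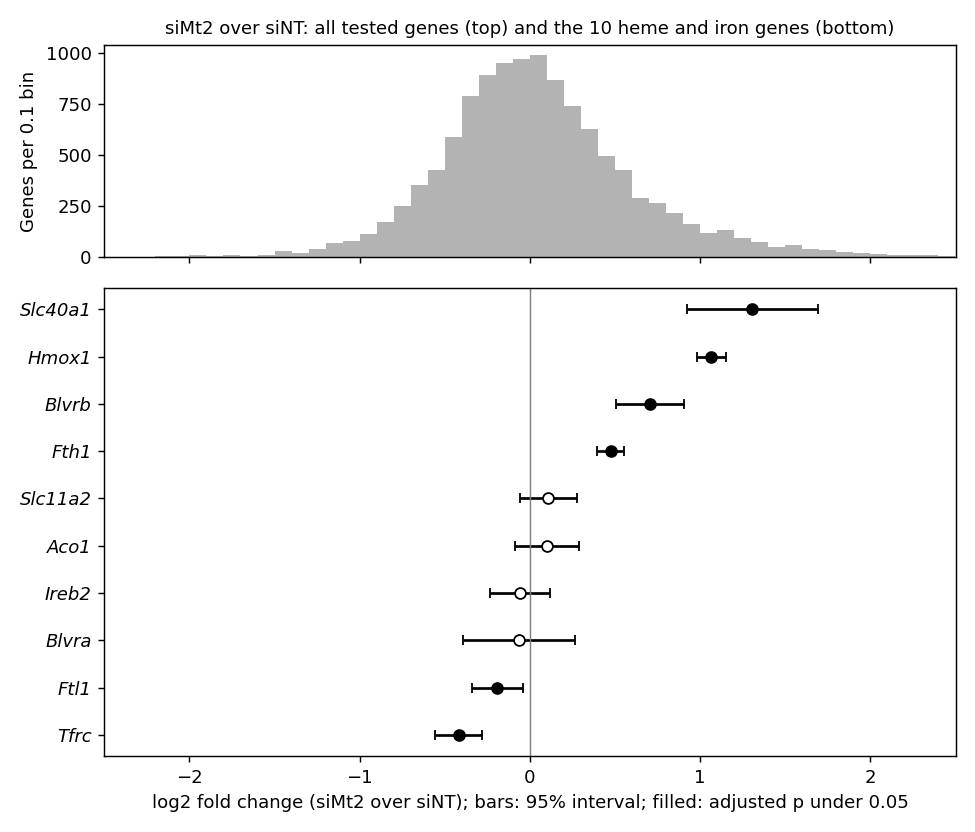
Log2 fold change of the 10 genes, siMt2-labelled over siNT libraries, with 95% confidence intervals (n = 3 libraries each), under a histogram of the log2 fold changes of all 11726 genes tested drawn between -2.5 and 2.5, with 60 genes beyond. Slc40a1 and Hmox1 lie at 1.31 and 1.07, Ftl1 and Tfrc lie below 0, and the intervals of Blvra, Slc11a2, Aco1 and Ireb2 cross 0.

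The inducible heme oxygenase was about 2-fold higher. Hmox1 stood at 1052, 1112 and 1060.1 CPM in the siMt2-labelled libraries, against 534, 499.8 and 505 CPM in the siNT libraries. Every siMt2-labelled library lay above every siNT library. Hmox1 averaged 1075 ± 32.4 CPM in the siMt2-labelled libraries and 513 ± 18.4 CPM in the siNT libraries (SD for n = 3 in both groups), a fold of 2.09 (95% confidence interval 1.97 to 2.22) with an adjusted p of 3.23e-14 (edgeR quasi-likelihood test, Benjamini-Hochberg over all genes tested, as for every adjusted p below). Of all genes tested, 94.2% had a lower log2 fold change than Hmox1.

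The constitutive heme oxygenase did not pass the test. Hmox2 stood at 27.4, 35.6 and 31.9 CPM in the siMt2-labelled libraries and at 33.8, 35.3 and 38.5 CPM in the siNT libraries. The groups overlapped, with a log2 fold change of -0.20 (95% confidence interval -0.45 to 0.04, adjusted p = 0.162). The ratio of Hmox1 to Hmox2 counts within a library, which no library scaling affects, was 38.4, 31.1 and 33.0 in the siMt2-labelled libraries and 15.7, 14.1 and 13.1 in the siNT libraries. The log2 ratio was higher in the siMt2-labelled libraries, by 1.25, with an exact two-sided permutation p of 0.1. This is the smallest p that 3 libraries against 3 allow, and adjusting over the 5 ratios computed gave 0.125.

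Of the biliverdin reductases, Blvrb rose and Blvra did not pass the test. Blvrb, which encodes biliverdin reductase B, a flavin reductase, stood at 160.2, 140.2 and 119 CPM in the siMt2-labelled libraries and at 93.1, 79.8 and 87.7 CPM in the siNT libraries. All siMt2-labelled values were above all siNT values, although replicate 3 lay closest to the siNT group. The fold was 1.63 (95% confidence interval 1.42 to 1.87, adjusted p = 1.79e-05). Blvra, the reductase of the biliverdin that heme oxygenase makes, had only 605 counts over all 6 libraries. It stood at 18.3, 23.8 and 15.8 CPM in the siMt2-labelled libraries and at 19.1, 19.3 and 22.3 CPM in the siNT libraries. The groups overlapped, and the fold of 0.958 has an interval of 0.763 to 1.20 (adjusted p = 0.769). Changes of either sign within these bounds are compatible with the counts. The count ratio of Blvra to Blvrb was 0.115, 0.170 and 0.134 in the siMt2-labelled libraries and 0.206, 0.243 and 0.255 in the siNT libraries, a log2 difference of -0.76 (exact permutation p = 0.1, adjusted p = 0.125).

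RefSeq promoter windows of assembly GRCr8 were at hand for 7 of the 10 genes. None was at hand for Hmox1, Fth1 and Ftl1, which were therefore not searched. The windows of 4 genes are shown because they set a gene that rose beside one that did not, or the importer that fell beside the exporter that rose. The counts were made on another build, and no coordinate here refers to it. Searched on both strands were the antioxidant response element core TGACNNNGC, to which NRF2 binds, the hypoxia response element core ACGTG and the Sp1 core GGGCGG. The 250 bases before the start follow for both biliverdin reductases, with matches in capitals, from chr3:134802660-134802909 on the plus strand for Blvra and chr1:91866008-91866257 on the plus strand for Blvrb.
Blvra: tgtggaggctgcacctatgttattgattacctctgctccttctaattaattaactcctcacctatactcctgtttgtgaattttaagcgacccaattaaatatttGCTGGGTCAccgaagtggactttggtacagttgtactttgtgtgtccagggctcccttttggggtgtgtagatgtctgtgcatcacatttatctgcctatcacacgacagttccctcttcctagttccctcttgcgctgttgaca
Blvrb: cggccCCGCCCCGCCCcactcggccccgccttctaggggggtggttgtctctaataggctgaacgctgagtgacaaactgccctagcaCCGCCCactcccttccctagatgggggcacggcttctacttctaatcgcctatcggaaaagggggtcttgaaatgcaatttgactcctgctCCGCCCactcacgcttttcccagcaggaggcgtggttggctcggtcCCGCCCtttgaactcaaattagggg
Blvra, which did not pass the test, holds 1 antioxidant response element core, 145 bases before the start on the reverse strand. Blvrb, which rose, holds 5 Sp1 cores and no match to the other motifs. The Sp1 cores at 245 and 240 bases before the start overlap by 1 base. The antioxidant core occurs in 10.1% of the 33469 promoters of the same length and the Sp1 core in 30.5%, and a match is a description of the letters only.

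**Figure D2:**
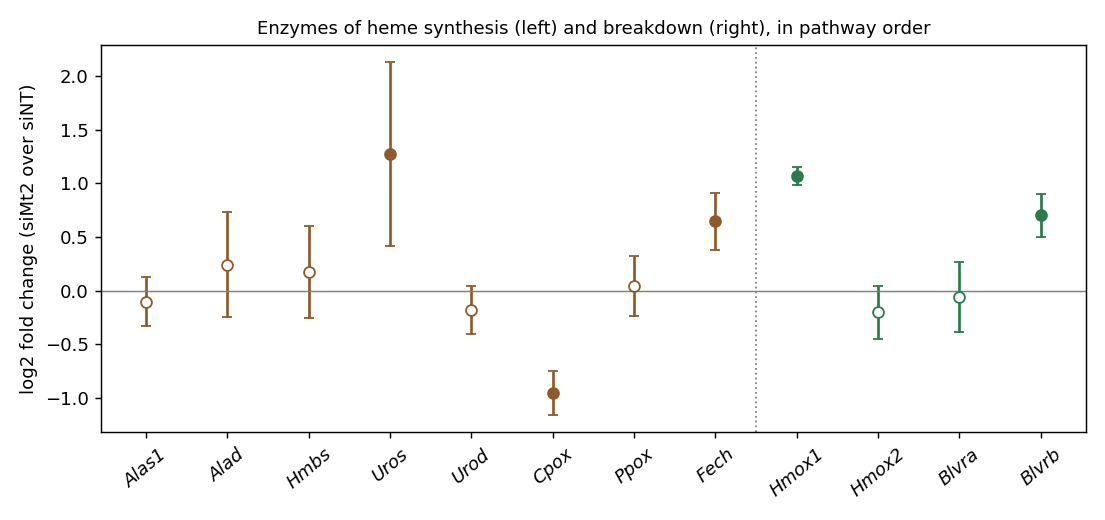
Log2 fold changes (siMt2-labelled over siNT, bars are 95% confidence intervals, n = 3 libraries each) of the enzymes of heme synthesis and breakdown in pathway order, filled where the adjusted p was under 0.05. In synthesis Cpox lies at -0.96, Fech at 0.65 and Uros, with the widest interval, at 1.27 (0.95 without replicate 1 of siMt2 and 0.97 without replicate 2 of siNT, both without a call), and in breakdown Hmox1 lies at 1.07 and Hmox2 at -0.20.

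The ferritin chains passed the test in opposite directions, the heavy chain by a wide margin and the light chain narrowly. Fth1, the heavy chain with ferroxidase activity, stood at 1321, 1335 and 1396 CPM in the siMt2-labelled libraries and at 1004, 947 and 962 CPM in the siNT libraries. The groups were far apart relative to their spread, and the fold was 1.39 (95% confidence interval 1.31 to 1.47, adjusted p = 2.86e-09). Ftl1, the light chain that promotes the mineral core, stood at 3306, 3302 and 2772 CPM in the siMt2-labelled libraries and at 3678, 3548 and 3505 CPM in the siNT libraries. Every siMt2-labelled library was below every siNT library, with replicate 3 lowest. The log2 fold change was -0.19 (SE 0.07) and the adjusted p was 0.0367.

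The call of Ftl1 depended on single libraries and on the scaling. Its log2 fold change was -0.11 without replicate 3 of siMt2 (adjusted p = 1.54e-04). Leaving out an siNT library ended the call, with an adjusted p of 0.165 without replicate 1, 0.137 without replicate 2 and 0.0504 without replicate 3. Upper quartile scaling gave -0.15 (adjusted p = 0.159) and scaling by library totals -0.18 (adjusted p = 0.106), also without a call.

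The balance of the chains can be read without any scaling. The count ratio of Fth1 to Ftl1 was 0.3997, 0.405 and 0.503 in the siMt2-labelled libraries and 0.273, 0.267 and 0.275 in the siNT libraries. The log2 ratio averaged -1.21 ± 0.187 in the siMt2-labelled libraries and -1.88 ± 0.0209 in the siNT libraries (SD, n = 3 each), a difference of 0.67 that met the smallest possible exact permutation p of 0.1 (adjusted p = 0.125). A count ratio is not a ratio of protein subunits. Together the 2 ferritin genes took 0.466%, 0.466% and 0.415% of all counts in the siMt2-labelled libraries and 0.468%, 0.447% and 0.445% in the siNT libraries, which overlap. RefSeq lists 6 further copies of Fth1 and 21 of Ftl1 in the rat genome, pseudogenes or genes named as like them, of which 0 have a row, so the ferritin levels are uncertain to the extent that reads were shared with them.

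The transferrin receptor fell and ferroportin rose. Tfrc, the transferrin receptor, stood at 90.8, 90.5 and 95.8 CPM in the siMt2-labelled libraries and at 121, 117 and 129.9 CPM in the siNT libraries. The groups did not overlap, and the fold was 0.748 (95% confidence interval 0.679 to 0.824, adjusted p = 2.70e-05). Slc40a1, which encodes ferroportin, the known iron exporter of cells, stood at 17.9, 26.2 and 23.2 CPM in the siMt2-labelled libraries and at 8.82, 7.86 and 9.78 CPM in the siNT libraries. Its lowest siMt2-labelled value was above its highest siNT value. These rest on 123, 111 and 66 counts in the siMt2-labelled libraries and on 49, 33 and 64 counts in the siNT libraries, and the fold of 2.47 has an interval of 1.89 to 3.23 (adjusted p = 6.37e-06). It was the largest fold of the 10 genes.

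Slc11a2, the divalent metal transporter DMT1 that moves iron out of endosomes, stood at 84.4, 77.3 and 90.2 CPM in the siMt2-labelled libraries and at 81.2, 77.2 and 74.4 CPM in the siNT libraries. The groups overlapped, with a log2 fold change of 0.11 (95% confidence interval -0.06 to 0.27, adjusted p = 0.265). The count ratio of Tfrc to Slc40a1 was 5.06, 3.45 and 4.11 in the siMt2-labelled libraries and 13.6, 14.7 and 13.2 in the siNT libraries. The log2 difference was -1.73, the widest gap of the 5 ratios, at the same exact permutation p of 0.1 (adjusted p = 0.125).

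The promoter windows of importer and exporter follow, 250 bases before the start, from chr11:81690319-81690568 on the minus strand for Tfrc and chr9:55543461-55543710 on the minus strand for Slc40a1, with the matches to the same motifs in capitals.
Tfrc: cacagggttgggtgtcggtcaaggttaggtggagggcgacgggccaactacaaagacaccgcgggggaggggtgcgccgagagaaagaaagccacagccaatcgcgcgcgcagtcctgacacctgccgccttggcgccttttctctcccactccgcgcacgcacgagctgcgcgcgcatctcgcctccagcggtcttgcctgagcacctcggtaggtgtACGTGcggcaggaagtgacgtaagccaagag
Slc40a1: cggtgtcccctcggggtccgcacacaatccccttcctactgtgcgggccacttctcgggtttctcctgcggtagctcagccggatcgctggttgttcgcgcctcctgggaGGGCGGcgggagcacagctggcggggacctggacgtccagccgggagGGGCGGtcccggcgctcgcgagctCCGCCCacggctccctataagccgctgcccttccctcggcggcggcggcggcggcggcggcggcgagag
Tfrc, which fell, holds 1 hypoxia response element core, 31 bases before the start, and this core occurs in 16.6% of all promoters of that length. Slc40a1, which rose, holds 3 Sp1 cores, at 140, 93 and 69 bases before the start. Among the genes without a call, Aco1 holds 3 Sp1 cores, Ireb2 holds 2, and the 2 windows of Slc11a2 hold 4 and 0.

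The iron regulatory proteins showed no change past the test. Aco1, the cytosolic aconitase that binds RNA once it has lost its iron-sulfur cluster, stood at 69.3, 68.8 and 59.7 CPM in the siMt2-labelled libraries and at 57.8, 65.3 and 63.2 CPM in the siNT libraries (log2 fold change 0.10, 95% confidence interval -0.09 to 0.29, adjusted p = 0.367). Ireb2, which is degraded when iron is plentiful, stood at 83.8, 76.6 and 92.7 CPM in the siMt2-labelled libraries and at 85.2, 80.5 and 95.3 CPM in the siNT libraries (log2 fold change -0.06, 95% confidence interval -0.24 to 0.12, adjusted p = 0.578). The groups overlapped for both genes. Fbxl5, the iron-sensing ubiquitin ligase adaptor that targets Ireb2 protein, had a log2 fold change of 0.01 (95% confidence interval -0.17 to 0.20, adjusted p = 0.909). The intervals bound any change of these 3 transcripts, and transcript levels do not measure the RNA binding of the proteins. The count ratio of Aco1 to Ireb2 was 0.826, 0.899 and 0.645 in the siMt2-labelled libraries and 0.679, 0.811 and 0.664 in the siNT libraries, overlapping (exact permutation p = 0.6).

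**Figure D3:**
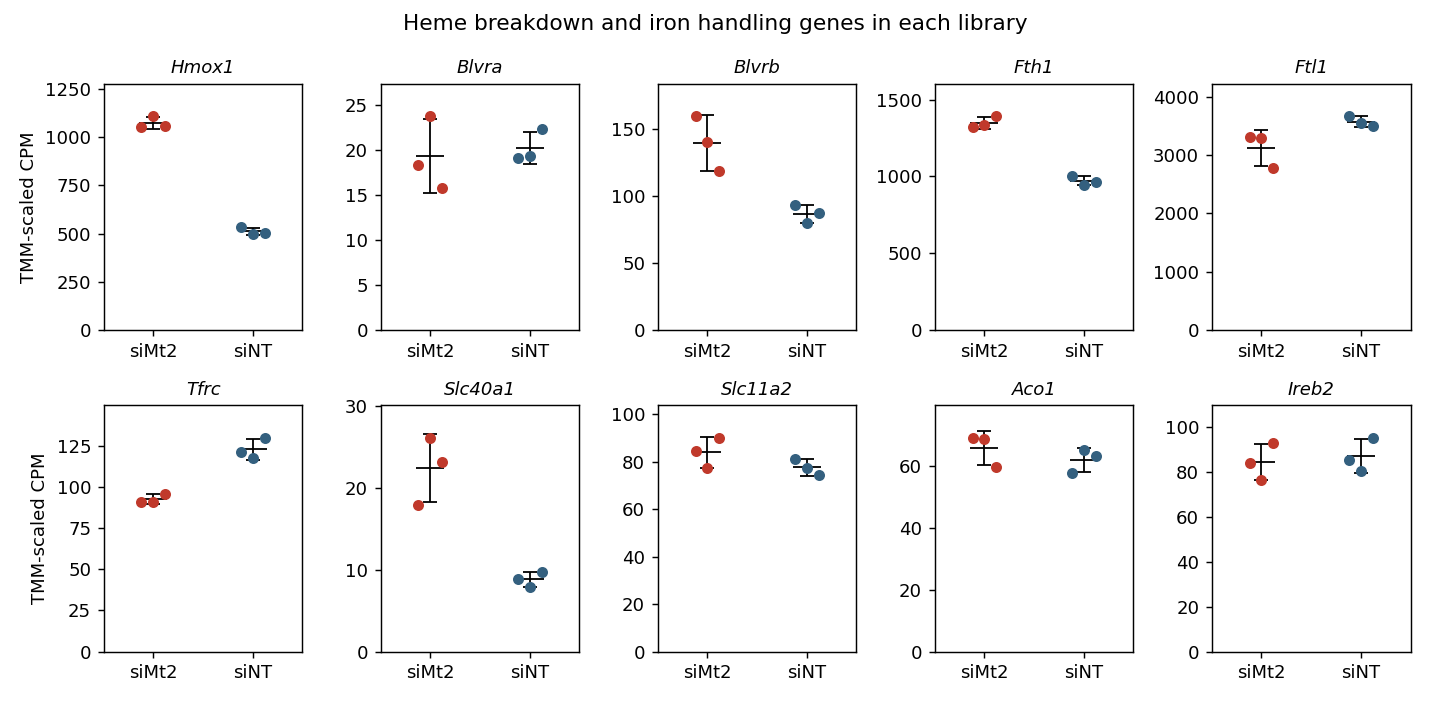
CPM of the 10 genes in each library, 1 panel a gene with its own axis from 0, siMt2-labelled libraries left of siNT libraries, points for libraries, horizontal lines for the mean and error bars for the SD (n = 3 each). The groups are apart for Hmox1, Blvrb, Fth1, Ftl1, Tfrc and Slc40a1 and overlap for the other 4.

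**Figure D4:**
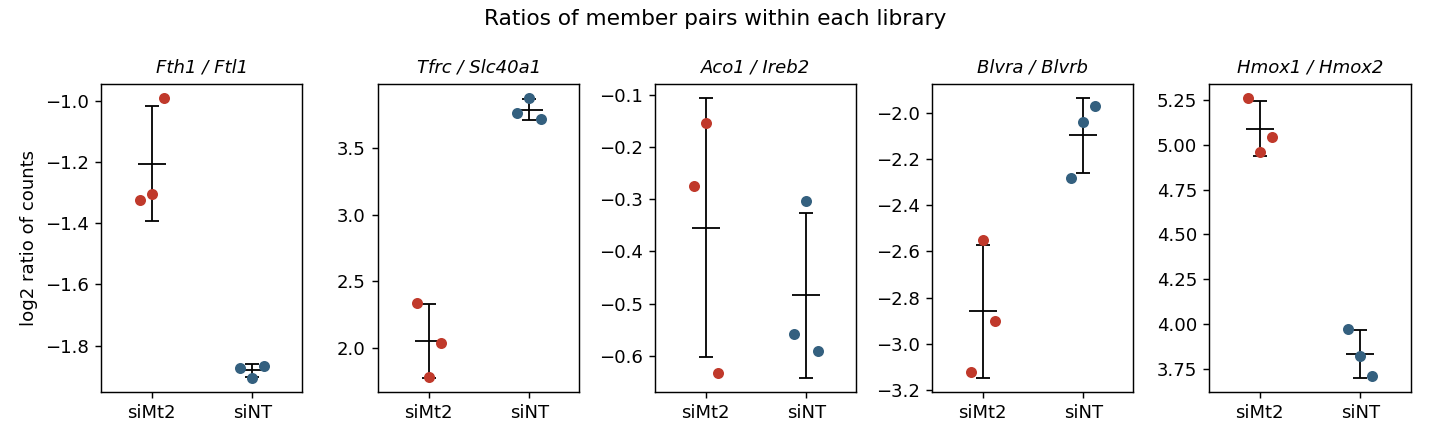
Log2 count ratio of 5 gene pairs in each library, siMt2-labelled left of siNT, with the group mean and SD (n = 3 each). The ratio of Fth1 to Ftl1 and of Hmox1 to Hmox2 is higher and that of Tfrc to Slc40a1 and of Blvra to Blvrb lower in the siMt2-labelled libraries, while Aco1 to Ireb2 overlaps.

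The rest of the pathway was read from 8 lists that hold 113 genes, 91 of them tested. Of these, 25 rose, 24 fell and 42 passed in neither direction, 53.8% called against 50.9% of all genes, with a median log2 fold change of 0.01. A share this near the background says nothing particular about the pathway, and the values of single genes follow by role. The counts given for each list stand against 25.8% higher and 25.1% lower over all genes.

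Heme synthesis held genes of both directions, with 3 higher and 4 lower among 13 tested. With thinning to equal depth, 2 were lower in place of 4. Cpox, coproporphyrinogen oxidase, stood at 32.7, 31.1 and 30.9 CPM in the siMt2-labelled libraries and at 60.5, 63.1 and 61.3 CPM in the siNT libraries. No library overlapped, and the log2 fold change was -0.96 (SE 0.10, adjusted p = 7.64e-08). Fech, ferrochelatase, which inserts the iron, stood at 30.3, 30.4 and 31.9 CPM in the siMt2-labelled libraries and at 19.8, 17.6 and 21.1 CPM in the siNT libraries (log2 fold change 0.65, adjusted p = 2.53e-04). Clpx, an unfoldase of the mitochondrial matrix, fell by 0.72 on the log2 scale. Slc25a39, a mitochondrial carrier, rose by 0.33. Alas1, the first enzyme of the route, did not pass the test at -0.10 (95% confidence interval -0.33 to 0.13). Alas2, its erythroid form, had 5 counts over all libraries and was not tested.

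Among 9 tested genes of heme transport and binding, 3 were higher and 1 lower. Slc48a1, the heme transporter of the endolysosome, stood at 285, 284 and 267 CPM in the siMt2-labelled libraries and at 215, 209 and 202 CPM in the siNT libraries (log2 fold change 0.42, adjusted p = 7.39e-07). Hebp1, a heme-binding protein, averaged 50.2 ± 1.60 CPM in the siMt2-labelled libraries and 32.4 ± 1.92 CPM in the siNT libraries. Hpx, hemopexin, rose by 1.58 on the log2 scale with 84 counts in all (adjusted p = 0.00254), and Lrp1, its receptor, fell by 0.30.

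Iron uptake had 2 higher and 3 lower among 9 tested, with 1 higher without replicate 1 of siMt2 and with thinning to equal depth. Slc25a37, mitoferrin 1, which takes iron into mitochondria, stood at 65.6, 59.4 and 72.7 CPM in the siMt2-labelled libraries and at 34.2, 44.8 and 38.5 CPM in the siNT libraries. The groups did not overlap (log2 fold change 0.75, adjusted p = 8.31e-06). Slc39a8, a divalent metal importer, averaged 8.52 ± 1.06 CPM in the siMt2-labelled libraries and 17.4 ± 1.64 CPM in the siNT libraries, with a 95% confidence interval of the fold of 0.385 to 0.649 (adjusted p = 1.10e-04). From the same list, Slc39a14 averaged 83.6 CPM in the siMt2-labelled and 78.3 CPM in the siNT libraries, without a call (adjusted p = 0.383). Slc25a28 did not pass the test either (log2 fold change 0.16, adjusted p = 0.217). The metalloreductases went both ways: Steap2 and Steap1 fell by 0.40 and 0.52 on the log2 scale, and Steap3 rose by 0.37 (adjusted p = 0.00512). The call lost without replicate 1 of siMt2 and with thinning was that of Steap3, since that of Slc25a37 held in all 15 alternatives.

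The list of iron chaperones and ferritin turnover, which leaves out the ferritin chains described above (Fth1 higher, Ftl1 lower), had 4 lower and 0 higher among 6 tested, against 25.1% lower and 25.8% higher over all genes. Ncoa4, the receptor that carries ferritin to the lysosome, stood at 129.7, 125 and 129 CPM in the siMt2-labelled libraries and at 159, 169 and 154 CPM in the siNT libraries (log2 fold change -0.33, adjusted p = 1.05e-04). Herc2, the ubiquitin ligase that acts on NCOA4 in human cells, fell by 0.49 on the log2 scale. Glrx3, an iron-sulfur glutaredoxin, and Pcbp1, a chaperone that delivers iron to ferritin, fell by 0.47 and 0.41. The median log2 fold change of the list was -0.37.

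Export and the hepcidin route had 1 higher (Erfe) and 4 lower among 9 tested. Neo1, neogenin, fell by 0.59 on the log2 scale. Cp, ceruloplasmin, the copper ferroxidase that works with ferroportin, averaged 42.1 ± 3.56 CPM in the siMt2-labelled libraries and 68.3 ± 8.17 CPM in the siNT libraries (adjusted p = 1.39e-05). Smad4 fell by 0.32 on the log2 scale. Erfe, erythroferrone, rose by 1.18 with 85 counts in all (adjusted p = 0.0233), a call lost under DESeq2 (adjusted p = 0.0574) and without replicate 2 of siMt2 (adjusted p = 0.0769) or replicate 1 (adjusted p = 0.136) or replicate 3 (adjusted p = 0.0589) of siNT. Hamp was not analysed here.

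Regulators had 4 higher and 2 lower among 11 tested, with 2 higher under DESeq2 and without replicate 1 or 2 of siMt2 or replicate 2 or 3 of siNT. Nfe2l2, which encodes NRF2, the activator known to drive Hmox1, stood at 260.0, 274 and 296 CPM in the siMt2-labelled libraries and at 217, 214 and 209 CPM in the siNT libraries (log2 fold change 0.37, adjusted p = 8.96e-06). Bach1, the heme-sensing repressor of Hmox1, stood at 47.3, 44.3 and 41.8 CPM in the siMt2-labelled libraries and at 39.4, 36.0 and 35.9 CPM in the siNT libraries (log2 fold change 0.27, adjusted p = 0.0322). Neither gene's groups overlapped. The call of Bach1 was lost in 7 of 15 alternatives, among them DESeq2 (adjusted p = 0.110) and the fits without replicate 1 (adjusted p = 0.147) or 2 (adjusted p = 0.0524) of siMt2 or replicate 2 (adjusted p = 0.0949) or 3 (adjusted p = 0.105) of siNT, while that of Nfe2l2 held in all 15. Skp1, an adaptor of the ubiquitin ligase that holds Fbxl5, fell by 0.32 on the log2 scale, and the deubiquitinase Usp15 rose by 0.30. Mafk, a small MAF protein that binds DNA as the partner of NRF2 or BACH1, stood at 90.1, 86.3 and 67.7 CPM in the siMt2-labelled libraries and at 104, 101 and 101 CPM in the siNT libraries (log2 fold change -0.30, adjusted p = 0.00563), with replicate 3 of siMt2 lowest. Keap1, the NRF2 inhibitor, rose by 0.45 with an adjusted p of 0.0437, although its groups overlapped. Its call was lost in 7 of 15 alternatives. Among them were the fits without replicate 1 (adjusted p = 0.171) or 2 (adjusted p = 0.171) of siMt2. The fits without replicate 2 (adjusted p = 0.126) or 3 (adjusted p = 0.184) of siNT lost it as well. Keap1 is named after its values were seen.

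Iron-sulfur cluster assembly had 8 higher and 2 lower among 22 tested, with a median log2 fold change of 0.20. Of this list 45.5% was called, against 50.9% of all genes (25.8% higher and 25.1% lower). The number higher was 4 without replicate 1 of siMt2, and 5 without replicate 2 of siNT and under DESeq2. Isca2, a late-acting mitochondrial assembly factor, averaged 17.2 ± 2.98 CPM in the siMt2-labelled libraries and 7.75 ± 1.36 CPM in the siNT libraries (log2 fold change 1.16, adjusted p = 5.65e-05). Isca1 went the other way, from 54.5 CPM in the siNT libraries to 41.3 CPM in the siMt2-labelled libraries (log2 fold change -0.38, adjusted p = 0.00413). Nfu1, a cluster carrier, and Fam96b, a cytosolic targeting factor, rose by 0.55 and 0.68, and the mitochondrial chaperone Hspa9 fell by 0.24. Enzymes that carry heme or iron-sulfur clusters, with their partners, had 4 higher and 4 lower among 12 tested. Cat, catalase, a heme enzyme, stood at 306, 328 and 338 CPM in the siMt2-labelled libraries and at 149, 142 and 153 CPM in the siNT libraries. No library overlapped (log2 fold change 1.12, adjusted p = 9.86e-13). Cyp1b1, a heme monooxygenase, fell by 0.64, Ppat, an iron-sulfur enzyme of purine synthesis, fell by 0.45, and Cyb5r3, the flavoprotein that reduces cytochrome b5, rose by 0.33.

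**Figure D5:**
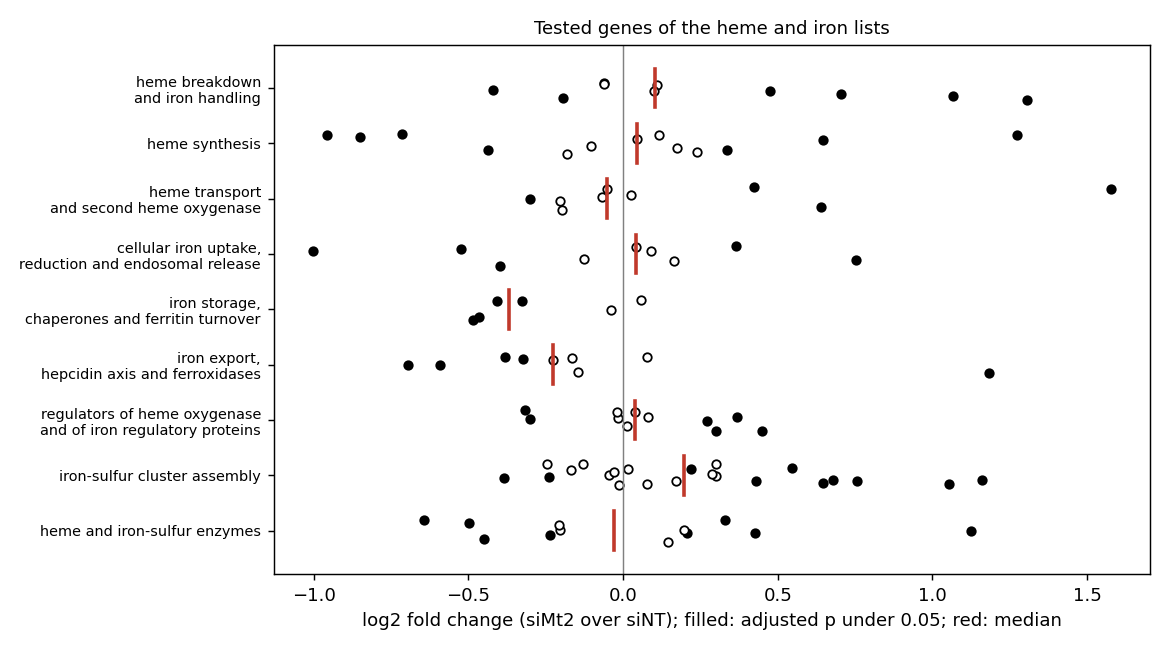
Log2 fold changes (siMt2-labelled over siNT) of the tested genes among the 10 described here (top row) and in each of the 8 pathway lists, 1 point a gene, filled where the adjusted p was under 0.05, with each median as a red line. The list of storage, chaperones and ferritin turnover, without the ferritin chains, has the lowest median, at -0.37, and iron-sulfur assembly the highest, at 0.20.

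Markers of blood cells, which also break down heme and handle iron, were at low levels. The 6 measured of 10 leukocyte and macrophage markers summed to 14.3 to 17.7 CPM in the siMt2-labelled libraries and to 22.6 to 27.3 CPM in the siNT libraries, mostly from Cd14, while Ptprc had 2 counts over all libraries and Lyz2 had 9. The 4 measured of 10 erythroid markers summed to 1.75 to 2.59 CPM in the siMt2-labelled libraries and to 0.953 to 3.42 CPM in the siNT libraries, with 3 counts of Hba-a1 in all. The summed fibroblast markers, mostly Col1a1, and the summed cardiomyocyte markers, mostly Tnnt2, were both higher in the siMt2-labelled libraries. Tnnt2 was the only cardiomyocyte marker with enough counts to be tested. Both sums move with the changes of Hmox1, Blvrb, Fth1 and Slc40a1, and their part in these was not tested.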

How the data were processed

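RNA-seq gene counts of 6 libraries were used, 3 labelled siMt2 and 3 siNT, grouped by sample titles. Per the labels' protocols, RNA came from a column kit and libraries from a SMARTer kit for mRNA. Build rn6 and the tools featureCounts, HISAT2 2.2.1, Trimmomatic 0.40, DESeq2 and limma are listed, with no settings, in the submitters' processing notes. The authors deposited raw whole-number counts per gene, with no normalization. No source used here says how reads of several genes, or strand, were treated.

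In 25 rows the gene name had become a date; with 0.260% of the counts, they were kept in the fit and are not named. Columns without a sample numbered 0. The test was that of edgeR 4.0.16 in R 4.3.3 (filterByExpr, minimum count 10, TMM scaling, robust quasi-likelihood test, two-sided, Benjamini-Hochberg adjustment over all genes tested, threshold 0.05). CPM and SD are TMM-scaled. Ratios are log2 count ratios with a pseudocount of 0.5, compared by exact two-sided permutation over 20 assignments. Totals of 2859759 to 6817777 counts set the precision. Libraries of 1 group differed from each other by a median of 1.58 to 2.38 times what counting error gives, so all 6 were kept as separate samples.

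The 10 genes and the pathway lists were chosen with earlier results of these data known. The text names the 10 genes, Mt2a and up to 4 genes per list with the smallest adjusted p. Also named are Hmox2, Bach1, Ncoa4, Fbxl5, Alas2 and Hamp. Alas1, Uros, Keap1, Steap3, Isca1, Slc39a14 and Slc25a28 were added after their values were seen. Promoters are from RefSeq, GRCr8. On simulated counts of the same 11726 genes, 200 were given a change. The procedure recovered 47.8% of the changed genes at a log2 change of 0.5, 82.1% at 1 and 100% at 2. Of its calls, 6.71% were false. In the data 50.9% of genes were called, a far larger share than was changed in the simulation, so these rates need not hold here. Alternatives were other scalings, filters, thinning, a replicate block, each library left out, DESeq2 1.42.0 and limma-voom (limma 3.58.1).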

Additional observations from a re-analysis of the deposited data

How the results depend on the processing

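The 4 rises of Hmox1, Blvrb, Fth1 and Slc40a1 kept their direction and their call under all 15 alternatives, with log2 fold changes of 1.04 to 1.11, 0.58 to 0.80, 0.45 to 0.51 and 1.18 to 1.52, as did the fall of Tfrc, at -0.45 to -0.36. The number of the 10 genes that fell was 1 in place of 2 with upper quartile scaling and with library totals only, and 1 to 2 leaving out each library, through Ftl1 each time. No alternative called Blvra, Slc11a2, Aco1 or Ireb2. The sign changed for all but Slc11a2: leaving out each library gave -0.223 to 0.030 for Blvra and -0.115 to 0.014 for Ireb2, and thinning to equal depth gave -0.077 for Aco1. Fbxl5 gave -0.042 to 0.103 leaving out each library and -6.87e-06 with no filter. Mt2a ranged from -0.561 to 0.052 leaving out each library. Thinning also gave 15 pathway genes higher in place of 25 and 22 lower in place of 24 (the cause was not tested), and a group difference in the log2 ratio of Tfrc to Slc40a1 of -2.07 in place of -1.73. Leaving out replicate 1 of siMt2 gave 17 pathway genes higher. Of 38 other genes named, 33 kept their direction and call in each alternative that gave a value. The others were Uros, Erfe, Bach1, Keap1 and Fbxl5. Steap3, Isca1, Slc39a14 and Slc25a28 are not among the 38. The block ended the call of Keap1 (0.40, adjusted p = 0.0606). In their deviations from the group means, same-numbered libraries correlated at -0.06 to 0.02 and differently numbered ones at -0.06 to 0.08. With n = 3 libraries in each group, these values cannot decide whether the replicate numbers pair the libraries. With the replicate block, 4 of the 10 genes rose and 2 fell, with Ftl1 at -0.20 (adjusted p = 5.40e-04), and 2968 genes rose and 2929 fell in all. Depth limits the precision of Blvra and Slc40a1 among the 10 genes, and of Hpx, Erfe and Uros, which had 84, 85 and 94 counts in all.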
